A study of Mus musculus with 2 samples.

Results

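The mitochondrial ribosomal protein genes are described here in single retinal cells sorted as degenerating cones. They were chosen by symbol alone, as every deposited gene whose symbol starts with *Mrpl* or *Mrps* followed by a digit, which gave 77 of the 17774 genes in the count table. All 77 were kept by the filter on genes with few counts. They divide into 50 genes of the large subunit, 26 of the small subunit and *Mrps36*, whose product is now placed in the 2-oxoglutarate dehydrogenase complex and not in the ribosome.

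Both libraries came from mice of the C57BL/6 strain that carried the *Pde6c* cpfl1 mutation, in which cones lack a working phosphodiesterase and degenerate, and an eGFP transgene under the *Chrnb4* promoter that marks cones for sorting. Retinae were taken at PN24 (postnatal day 24), and single GFP-positive cells were sorted into wells of 96-well plates. The cells labelled as GSK-J4-treated cones came from eyes given 1 intravitreal injection of 10 µM GSK-J4, an inhibitor of the Jumonji enzymes that demethylate H3K27, at PN14, 10 days before collection, whereas the comparison eyes were uninjected and not sham-injected. There was 1 library on 1 plate per condition, so plate and treatment cannot be told apart, cells are not replicates, and no test between conditions was possible. As the markers of the treated library went against its cone label, its cells are called treated cells.

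Mitochondria make 13 proteins of the respiratory chain and ATP synthase from their own DNA, on ribosomes of their own. The RNA of these ribosomes is encoded in mitochondrial DNA, but every protein of them is encoded in the nucleus, made in the cytosol and imported. Part of these proteins have bacterial counterparts, and the others were added during the evolution of mitochondria. Cone photoreceptors hold a dense cluster of mitochondria next to the outer segment, which supplies ATP for phototransduction and ion pumping.

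After filtering, 82 uninjected cones held 1113424 counts (860 to 98250 per cell, median 8118) and 64 treated cells 208578 (420 to 15371 per cell, median 2336). All 11 cone markers had counts in uninjected cones, where they took 2.59% of the counts. In treated cells they took 0.213%, 5 of the 11 were at 0, and 50 of the 64 cells had no count of any of them, which goes against the label of that library. Per cell, cone markers took 0 to 6.74% in treated cells and 0.358 to 9.81% in uninjected cones, so the highest treated cell lay within the latter range. Rod markers took 0.139% and 0.0201% and Müller glia markers 0.108% and 0.0273% of the counts of uninjected cones and treated cells, and bipolar, amacrine, ganglion cell, microglia and pigment epithelium markers each took at most 0.00959% in either library. Olfactory and vomeronasal receptor genes (396 symbols starting Olfr or Vmn), which cones are not known to use and which served as a measure of background, took 0.624% and 1.43%. Their part in the differences given here was not tested.

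Many nuclear genes for mitochondrial proteins have GC-rich promoters, and nuclear respiratory factor 1 (NRF1), the ETS factor GABPA and YY1 are known to act there. RefSeq promoter windows of 300 bases, from 250 bases before to 50 after the start (GRCm38.p6), were at hand for 68 of the 77 genes. The letters CCGGAAG (GABPA-type ETS), GCGCA and GCGC with any base between them (NRF1) and AAGATGGC (YY1) were searched on both strands, and so was TATAAA. Of the 68 genes, 25 (36.8%) held the ETS letters, 13 (19.1%) the NRF1 letters and 12 (17.6%) the YY1 letters, against 9.93%, 5.19% and 3.19% of all 27025 genes with a window. Of the 5906 genes with a window that were detected in 10% or more of the cells of a library, 18.6%, 11.2% and 5.42% held them. At least 1 of these 3 was present in 42 of 68 (61.8%), against 16.4% of all genes and 30.8% of the detected genes. TATAAA was present in 5 of 68 (7.35%), against 15.7% of all and 10.2% of the detected genes. A match is only a run of letters, and factor binding was not measured.

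The windows of the 2 genes with the lowest and the 2 with the highest log-fold between the libraries are printed as examples. Each is written 5′ to 3′ on the strand of the gene, with the match in capitals, for *Mrpl34* (ETS, chr8:71464676-71464975, plus strand), *Mrps18c* (ETS on the other strand, chr5:100798509-100798808, plus strand), *Mrpl12* (NRF1 on the other strand, chr11:120484387-120484686, plus strand) and *Mrps11* (YY1 on the other strand, chr7:78782881-78783180, plus strand).
Mrpl34: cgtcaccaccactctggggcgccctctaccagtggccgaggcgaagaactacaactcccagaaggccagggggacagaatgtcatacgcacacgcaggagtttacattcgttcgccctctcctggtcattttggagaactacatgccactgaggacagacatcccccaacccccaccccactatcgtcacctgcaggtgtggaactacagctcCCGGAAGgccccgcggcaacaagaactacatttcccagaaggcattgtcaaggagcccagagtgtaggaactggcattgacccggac
Mrps18c: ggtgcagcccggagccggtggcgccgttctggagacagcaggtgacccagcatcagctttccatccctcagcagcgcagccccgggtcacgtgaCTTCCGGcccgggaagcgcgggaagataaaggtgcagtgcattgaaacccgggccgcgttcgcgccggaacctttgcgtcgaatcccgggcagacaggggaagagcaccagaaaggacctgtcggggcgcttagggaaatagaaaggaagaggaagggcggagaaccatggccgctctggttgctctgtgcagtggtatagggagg
Mrpl12: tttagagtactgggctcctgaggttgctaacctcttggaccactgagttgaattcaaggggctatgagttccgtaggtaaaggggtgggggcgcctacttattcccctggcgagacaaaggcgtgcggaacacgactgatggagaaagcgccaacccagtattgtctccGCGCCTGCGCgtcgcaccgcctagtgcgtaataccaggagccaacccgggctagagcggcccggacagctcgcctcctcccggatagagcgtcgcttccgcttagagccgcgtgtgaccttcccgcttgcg
Mrps11: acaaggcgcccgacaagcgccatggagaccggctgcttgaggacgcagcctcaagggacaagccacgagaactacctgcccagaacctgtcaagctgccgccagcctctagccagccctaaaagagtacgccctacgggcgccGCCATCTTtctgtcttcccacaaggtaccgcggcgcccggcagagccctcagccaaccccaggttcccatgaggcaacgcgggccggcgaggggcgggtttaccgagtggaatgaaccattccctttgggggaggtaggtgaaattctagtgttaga

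Each of these genes carried a match to 1 of the same 3 motifs, as did 42 of all 68 genes with a window (61.8%). Near the ends of the order, *Mrpl20* and *Mrpl41* among the lowest and *Mrpl50* and *Mrps2* among the highest held none. Among the 42 genes with such a match, 27 were lower and 2 higher in treated cells beyond 0.3 log-fold (median log-fold -0.42). Among the 26 without, 12 were lower and none higher (median -0.25). The single motifs differed. With the ETS letters 16 of 25 were lower (median -0.46), and without 23 of 43 (-0.31). With the YY1 letters 9 of 12 were lower (-0.39), and without 30 of 56 (-0.33). NRF1 went the other way, with 7 of 13 (-0.31) against 32 of 55 (-0.38). With TATAAA 5 of 5 were lower (-0.92), and without 34 of 63 (-0.31). Of all 15947 genes 11.8% were lower and 12.6% higher, and of genes detected in 10% or more of the cells of a library 24% and 20.4%. Genes outside the family were not split by motif, and a link between motif and log-fold was not tested.

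The question of this comparison was which mitoribosomal genes differed between the library labelled as GSK-J4-treated and the uninjected one. As a group they took a smaller share of the counts of treated cells, and fewer of them were detected per cell. The 77 genes had 10954 counts in uninjected cones, or 0.984% of all counts (95% Clopper-Pearson interval 0.966 to 1.0%), and 725 in treated cells, or 0.348% (0.323 to 0.374%). The share was thus 2.83-fold lower (2.63 to 3.06). These intervals cover counting error alone, and none covers differences between animals or plates. The share was lower on both sides of the plates, with 1.03% and 0.936% in uninjected cones of well columns 1 to 6 and 7 to 12, and 0.363% and 0.336% in treated cells. The share of mitochondrially encoded transcripts differed beside it, with a median of 0.949% of the counts of a cell in uninjected and 0.0145% in treated cells, and its part was not tested.

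For each gene the counts of every cell were scaled to 10000 and averaged over the library, and 1 was added before the natural log was taken. The log-fold is the treated value minus the uninjected value, a scale that understates differences of genes with few counts. With a limit of 0.3 set by size alone, 42 of the 77 genes were lower in treated cells, 2 were higher (*Mrps11* and *Mrpl12*) and 33 lay within the limit. Over all 15947 genes, 11.8% were lower and 12.6% higher. The median log-fold of the 77 was -0.33, with a range from -2.01 to 0.84, against 0.033 for all genes. Of genes detected in 10% or more of the cells of a library, 65 were mitoribosomal, with the same counts of 42 lower and 2 higher and a median of -0.46, whereas 24% of the 7682 such genes were lower and 20.4% higher, with a median of -0.0050. A gene could pass this limit through 1 library alone. The 65 were in a median of 26.8% of uninjected and 1.56% of treated cells, and 24 had no treated count. They were thus admitted mainly through the library where they were high, and their values add no support to the difference. After every cell was thinned to 867 counts, 42 were lower and 8 higher. Without the cell with the highest count of each gene in each library, 37 were lower and 0 higher. The shares of all genes past the limit were not computed for these 2 settings.

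**Figure D1:**
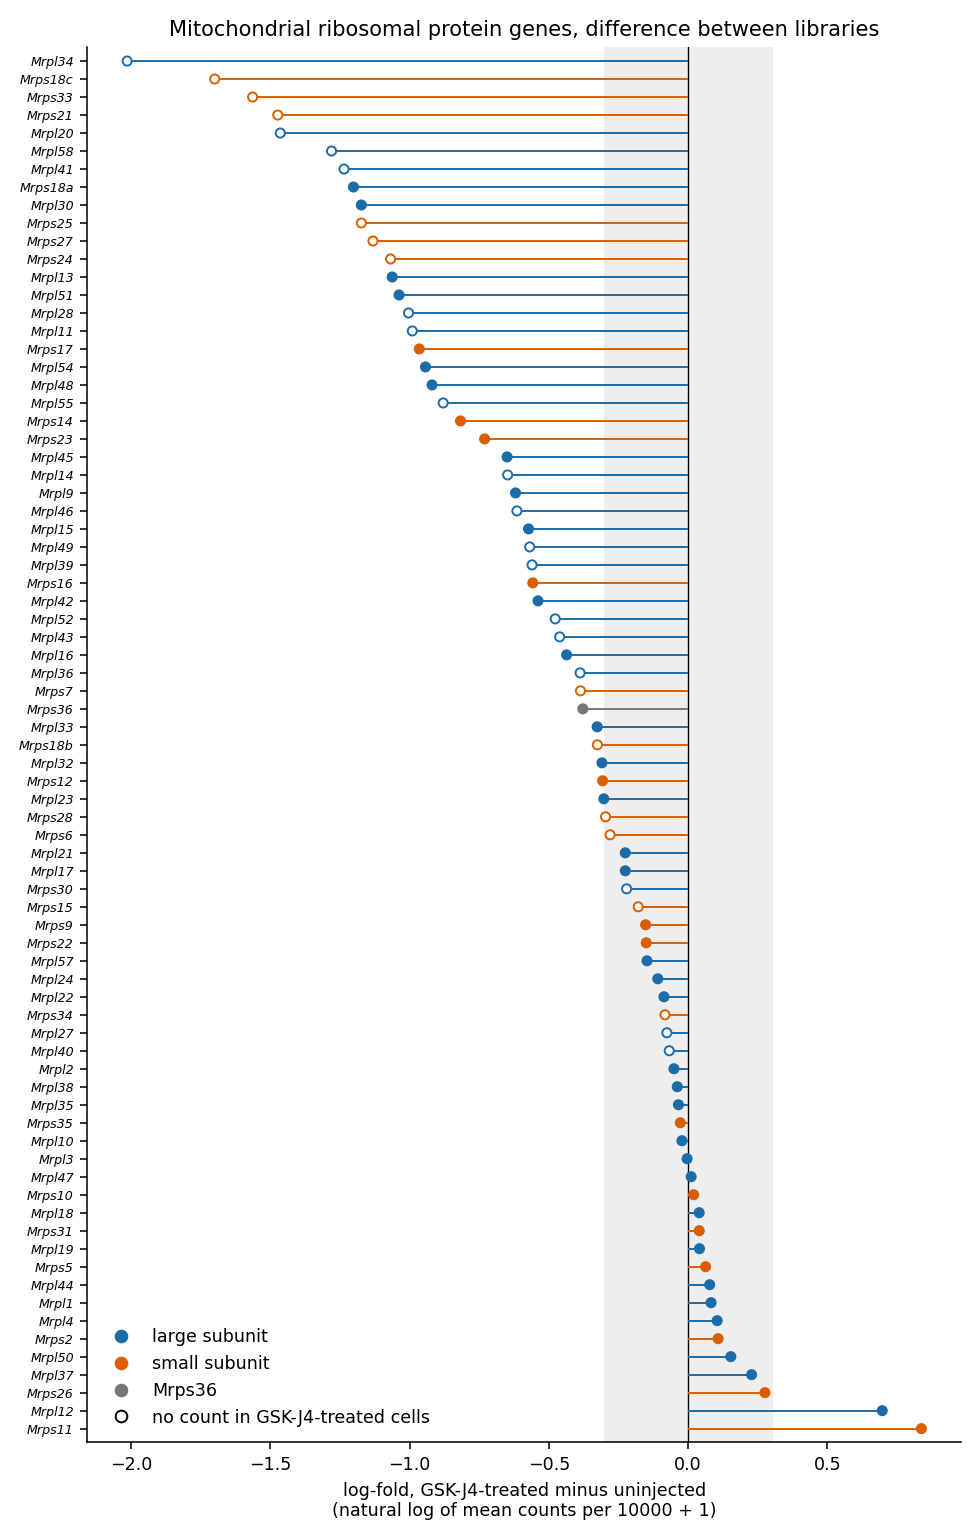
Log-fold of each of the 77 mitochondrial ribosomal protein genes, treated cells minus uninjected cones (natural log of mean counts per 10000 plus 1), ordered from lowest to highest, with large subunit genes in blue, small subunit genes in orange, *Mrps36* in grey and open circles for the 29 genes without a count in treated cells. The grey band spans -0.3 to 0.3, 42 genes lie left of it, and *Mrpl12* and *Mrps11* are alone to its right.

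The lower share was spread over cells. Per cell, the 77 genes took a median of 0.800% of the counts (range 0 to 5.89%) in uninjected and 0.206% (range 0 to 4.24%) in treated cells. A median of 20.5 of the 77 genes (0 to 60) was detected per uninjected cone and of 3 (0 to 17) per treated cell. At an equal depth of 867 counts, which left out 1 uninjected and 14 treated cells, the medians were 0.807% and 0.231% of the counts and 5 and 2 genes. At least 1 count of any of the genes was present in 81 of 82 uninjected cones (98.8%, 93.4 to 99.97%) and in 57 of 64 treated cells (89.1%, 78.8 to 95.5%). The distributions of the libraries overlapped, and 3 cells stood far above the rest. An uninjected cone of 1409 counts in columns 7 to 12 had 5.89%, and 2 treated cells had 4.24% and 3.42%, which were the cells with the highest counts of *Mrpl12* and *Mrps11*.

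**Figure D2:**
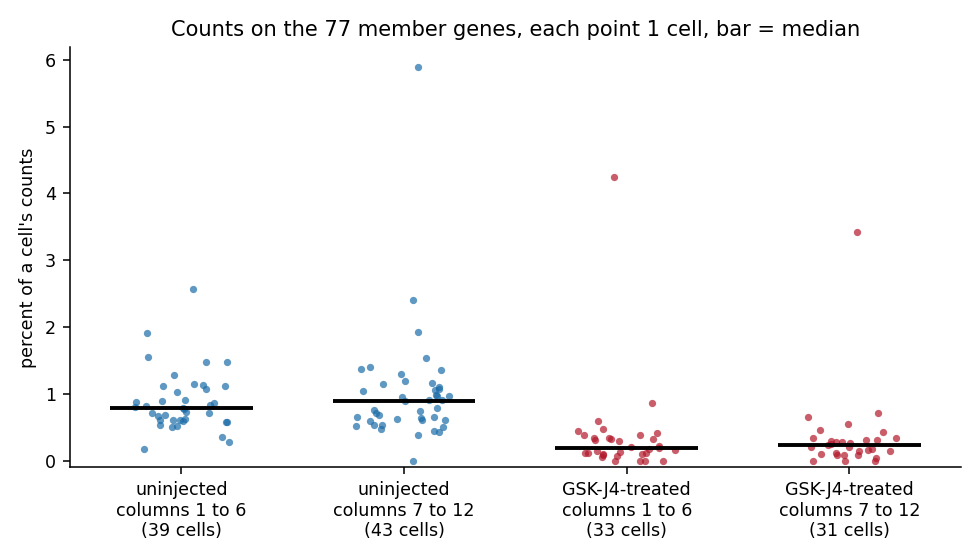
Percent of the counts of each cell on the 77 genes, for both libraries and both sides of each plate, with each point 1 cell and each bar the median of the group. The medians were 0.788% and 0.893% on the sides of the uninjected plate and 0.186% and 0.228% on those of the treated plate.

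Of the 77 genes, 29 had no count in treated cells, 23 had 1 to 3, 11 had 4 to 9 and 14 had at least 10. With 208578 counts in that library, a difference could not be detected for genes with few uninjected counts. Of the 35 genes with at least 100 uninjected counts, 15 had none in treated cells, where 21.3% of all 1853 genes at this depth had none. A mitoribosomal gene was detected in a median of 24.4% of uninjected and 1.56% of treated cells. These medians were 8.54% and 4.69% over all genes. Over genes detected in 10% or more of the cells of a library they were 18.3% and 7.81%. The Olfr and Vmn genes were detected in a median of 3.66% and 3.13% of cells, and 76 of the mitoribosomal genes exceeded that level in uninjected cones, but 27 in treated cells. The other 50 were at or below that median in treated cells.

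**Figure D3:**
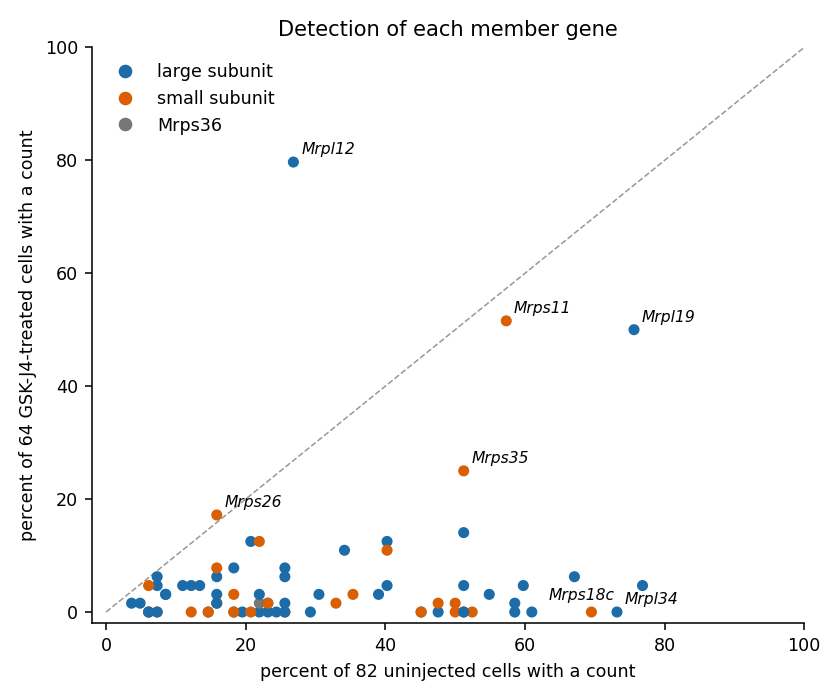
Percent of the 64 treated cells with a count of each gene against that of the 82 uninjected cones, with the dashed line at equal shares. Most genes lie near 0 on the vertical axis, while *Mrpl12* with 51 of 64 cells lies far above the line and *Mrps11* and *Mrpl19* reach 33 and 32 of 64 cells.

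The 5 lowest log-folds were those of genes without a single count in treated cells. *Mrpl34*, a protein of the large subunit with a bacterial counterpart, had 866 counts (95% exact Poisson interval 809 to 926) in 60 of 82 uninjected cones, 297 on columns 1 to 6 and 569 on columns 7 to 12, and 0 in 64 treated cells, which by the floor of 3 counts allows up to 4.69% of cells with a count (exact upper bound 5.6%), whether or not further cells express it. With 3 counts over the treated library taken as the floor, and both libraries scaled to their totals, it was at least 54.1-fold lower. The floor takes the uninjected count as exact, and the interval of the ratio ends at 43.9-fold lower. Its log-fold was -2.01, or -1.88 with the treated library at the floor. The gene is on chromosome 8 (GRCm38, chr8:71464959-71465747, plus strand) and overlaps no other annotated gene. *Mrps18c*, at chr5:100798627-100804471 on the plus strand, where *Gm43511* overlaps it, had 625 counts (577 to 676) in 57 cells, 363 and 262 on the sides, and was at least 39.0-fold lower by the floor and 31.6-fold by the interval, with a log-fold of -1.70 (-1.57 at the floor). *Mrps33*, a small subunit protein without a bacterial counterpart, at chr6:39801804-39810988 on the minus strand, had 458 counts in 42 cells, 393 and 65 on the sides, and was at least 28.6-fold lower by the floor and 23.2-fold by the interval, with a log-fold of -1.56 (-1.43 at the floor). On both sides of the uninjected plate each of the 3 was thus above the treated library.

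*Mrps21*, a counterpart of bacterial S21, had 546 counts in 43 uninjected cones and a log-fold of -1.47, and *Mrpl20* of the large subunit had 336 counts in 50 cones and a log-fold of -1.46. Both had 0 in treated cells and were at least 34.1-fold and 21-fold lower by the floor. *Mrpl58*, a peptidyl-tRNA hydrolase that became part of the large subunit, had 297 counts (log-fold -1.28), *Mrpl41* had 310 (-1.24) and *Mrps25* of the small subunit had 110 (-1.17), again against 0. *Mrpl30* had 267 uninjected counts and 4 in treated cells, each in a different cell, with a log-fold of -1.17. *Mrps25* overlaps *Nr2c2* on the other strand and *Mrpl58* a noncoding antisense gene, and as counting is not stated to use strand, reads there cannot be told apart. Of the 77 genes, 41 overlap another annotated gene, and 25 of these a protein-coding one. *Mrps18a*, *Mrpl13*, *Mrpl48* and *Mrps24*, described below, are among the 25. Under all 10 ways of processing the counts, 26 of the 77 genes lay below -0.3, and 42 had a negative log-fold. The shares of all genes that did so were not computed.

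The next genes in the order were of the same kind. *Mrps27* had 138 counts and *Mrps24* 226 in uninjected cones, and neither had any in treated cells (-1.13 and -1.07). *Mrpl13* had 216 and 3 counts (-1.06), *Mrpl51* 213 and 1 (-1.04), *Mrps17* 174 and 1 (-0.97), *Mrpl54* 219 and 3 (-0.94) and *Mrpl48* 389 and 3 (-0.92). *Mrpl28* with 249 counts (-1.004) and *Mrpl11*, at the base of the stalk where translation factors bind, with 335 (-0.99) again had none in treated cells. The treated counts of these genes were thus 0 to 3 in every case. The limit itself ran between *Mrpl23*, with 126 and 7 counts and a log-fold of -0.303, and *Mrps28*, with 63 and 0 counts and a log-fold of -0.296.

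The 3 homologues of bacterial protein S18 were below the limit over all cells, but *Mrps18b* not under every alternative. MRPS18C and MRPS18B are parts of the small subunit and MRPS18A, despite its name, of the large. *Mrps18a* had 197 counts in uninjected cones and 2 in treated cells. Its log-fold was -1.20, with a ratio of 0.0542 (exact conditional interval 0.00652 to 0.198). *Mrps18b* had 42 counts in 12 uninjected cones and 0 in treated cells, at least 2.62-fold lower by the floor and 2.04-fold by the interval, and a log-fold of -0.33. It was -0.19 at the floor, 0 after thinning, -0.269 on columns 1 to 6 alone and -0.271 without the highest cell, so that it lay within the limit under these. All 3 promoter windows held the ETS letters.

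For both genes above the limit, the value changed with 1 cell per library and with the side of the plate. *Mrps11*, a counterpart of bacterial S11 in the small subunit, had 393 counts (355 to 434) in 47 of 82 uninjected cones, 250 on columns 1 to 6 and 143 on columns 7 to 12, and 130 (109 to 154) in 33 of 64 treated cells, 19 and 111 on the sides. Its log-fold was 0.84, and its counts scaled to the library totals were 1.77-fold higher (1.44 to 2.16). A single treated cell held 89 of the 130 counts. Without the highest cell of each library 41 treated and 295 uninjected counts were left, or 1.99 and 2.71 per 10000, and the log-fold was 0.02. Within columns 1 to 6 of both plates the log-fold was -0.33, within columns 7 to 12 it was 1.60, and with median-ratio size factors it was -0.0060.

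*Mrpl12* encodes a protein of the stalk of the large subunit, which binds translation factors, and has also been described as a partner of the mitochondrial RNA polymerase. It had 382 counts (345 to 422) in uninjected cones, all of them in 22 of the 43 cells on columns 7 to 12, and 0 of 39 cells on columns 1 to 6 had one, which by the floor allows up to 7.69% of those cells with a count (exact upper bound 9.03%). In treated cells it had 175 counts (150.03 to 203) in 51 of 64 cells (79.7%), 150 on columns 1 to 6 and 25 on columns 7 to 12. Of these 51 cells, 50 had exactly 1 count, and the remaining cell had 125. The same form was seen in other genes, as 68 of the 222 genes found in at least 50% of treated cells were at exactly 1 count in at least 90% of those cells, and 6 of 793 genes in uninjected cones. The log-fold of *Mrpl12* was 0.70 over all cells, 2.87 within columns 1 to 6 and -0.79 within columns 7 to 12, -0.08 without the highest cell of each library and 0.25 with median-ratio size factors. Thinned to the same depth, 8.64% of uninjected and 36% of treated cells had a count. It lies at chr11:120484613-120489065 on the plus strand, where *Gm16755* overlaps it on the other strand.

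*Mrps11* lies at chr7:78783119-78792989 on the plus strand and overlaps the start of another mitoribosomal gene, *Mrpl46* of the large subunit, on the minus strand. *Mrpl46* had 117 counts in uninjected cones, 109 on columns 1 to 6 and 8 on columns 7 to 12, and 0 in treated cells. Its log-fold was -0.61. The genes of this pair thus lay on opposite sides of the limit, and reads in their overlap cannot be assigned to one of them without strand.

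Besides these, 13 genes had a log-fold above 0 but within the limit. *Mrps26* of the small subunit was nearest to it, with 34 counts in 13 uninjected cones and 23 in 11 treated cells, a log-fold of 0.28 and a ratio of summed counts of 3.61 (2.03 to 6.31). *Mrpl37* had 88 counts in uninjected cones, all on columns 7 to 12, and 7 in treated cells. Its log-fold was 0.23, while its summed counts gave a ratio of 0.425 (0.166 to 0.912), so that the direction depended on whether cells or counts were weighted equally. The others were *Mrpl50* (0.15), *Mrps2* (0.11), *Mrpl4* (0.10), *Mrpl1* (0.08), *Mrpl44* (0.08), *Mrps5* (0.06), *Mrpl19* (0.04), *Mrps31* (0.04), *Mrpl18* (0.04), *Mrps10* (0.02) and *Mrpl47* (0.01). Of the 77 genes, *Mrps26* alone had a log-fold above 0 under all 10 ways of processing the counts, from 0.18 to 0.93.

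*Mrpl19*, a counterpart of bacterial L19, had similar summed levels in both libraries. It had 539 counts (494 to 586) in 62 uninjected cones, 245 and 294 on the sides, and 112 (92.2 to 135) in 32 treated cells, 48 and 64 on the sides. The ratio of summed counts of *Mrpl19* was 1.11 (0.897 to 1.36). Thinned to the same depth, 28.4% of uninjected and 38% of treated cells had a count. *Gcfc2*, which overlaps it on the other strand, failed the gene filter. *Mrpl12*, *Mrps11* and *Mrpl19* together held 417 of the 725 treated counts (57.5%), against 1314 of 10954 uninjected counts (12%). Without these 3 genes the shares were 0.866% and 0.148%, a 5.86-fold difference (5.23 to 6.59).

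The other genes with at least 10 counts in treated cells were *Mrps35* (38 counts in 16 cells), *Mrpl15* (28 in 9), *Mrps26*, *Mrpl57* (21 in 7), *Mrps10* (18 in 7), *Mrpl38* (15 in 8), *Mrps31* (14 in 8), *Mrps5* (12 in 5), and *Mrps14*, *Mrpl16* and *Mrpl17* with 11 each. The counts of *Mrps14*, a counterpart of bacterial S14, all came from 1 cell, and its log-fold was -0.82 with 130 counts in 41 uninjected cones. *Mrpl15* had 14 of its 28 counts in 1 cell. *Mrps35* had a ratio of summed counts of 1.02 (0.704 to 1.46) and was detected in 8.64% and 16.0% of cells after thinning. Detection in at least 10 cells, at unequal depth and number of cells, was reached by 64 genes in uninjected and 5 in treated cells. The latter were *Mrpl12*, *Mrps11*, *Mrpl19*, *Mrps35* and *Mrps26*. The shares of all genes found in at least 10 cells were not computed.

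The lower counts were found in both subunits. The 50 large subunit genes had 7020 and 456 counts, a ratio of shares of 0.347 (0.315 to 0.381), with 28 lower, 1 higher and a median log-fold of -0.36. The 26 small subunit genes had 3903 and 268 counts, a ratio of 0.367 (0.323 to 0.415), with 13 lower, 1 higher and a median of -0.30. *Mrps36* had 31 and 1 counts and a log-fold of -0.38. The proteins were also classed by whether a bacterial protein holds the same place in the ribosome, so that *Mrps18a* and *Mrps18b*, although S18 homologues, were counted as mitochondria-specific. Within the large subunit, the 20 mitochondria-specific proteins had a ratio of 0.137 (0.106 to 0.174) and 13 lower genes, and the 30 with a counterpart had a ratio of 0.472 (0.424 to 0.523), with 15 lower and 1 higher. *Mrpl12* and *Mrpl19*, with most of the treated counts of the large subunit, are in the latter class, and the 28 others of it had 3480 and 102 counts, a ratio of 0.156 (0.127 to 0.191). In the small subunit the ratios were 0.387 for the 16 genes with a counterpart and 0.324 for the 10 mitochondria-specific ones. The 16 genes had 191 treated counts, of which *Mrps11* held 89 in 1 cell and 41 in the others. The ratio without *Mrps11* was not computed, so the order of these 2 ratios may rest on that gene.

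Other genes of mitochondrial translation were counted beside them. Of the 5 other proteins of the mitoribosome, which carry other symbols, 3 were lower and none higher, *Aurkaip1* with 191 and 1 counts (log-fold -1.18), *Chchd1* with 139 and 2 (-0.996) and *Gadd45gip1*, near the exit of the peptide tunnel, with 100 and 0 (-0.84). Of 22 assembly factors measured among 27 listed, 6 were lower (27.3%) and 2 higher (9.09%), against 11.8% and 12.6% of all genes and 24% and 20.4% of the detected ones. *Malsu1*, which keeps the subunits apart during assembly, had 141 and 8 counts (-0.56) and *Mpv17l2* 95 and 1 (-0.53), whereas the GTPase *Gtpbp10* had 14 and 11 (0.43) and the pseudouridine synthase *Trub2* 8 and 7 (0.39). None of the 12 translation factors measured among 18 listed lay beyond the limit, against 11.8% of all genes lower and 12.6% higher. Their log-folds were negative for 7 and positive for 5, and their summed ratio was 0.462 (0.305 to 0.676). The scale understates differences of genes with few counts. *Tufm* had 60 and 1 counts and a log-fold of -0.24, within the limit, but a ratio of summed counts of 0.0890 (0.00222 to 0.515). The elongation factor *Gfm1* had 94 and 7 counts (-0.27) and the recycling factor *Gfm2* 102 and 5 (0.23). The summed counts of *Gfm2* gave the other direction, with a ratio of 0.262 (0.0832 to 0.631).

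The mitochondrial aminoacyl-tRNA synthetases and their partners, which load amino acids onto tRNA, took 0.0949% of uninjected and 0.0978% of treated counts. The 17 genes measured among 22 listed had 1057 and 204 counts, a ratio of 1.03 (0.882 to 1.20), with 2 lower (*Aars2*, -0.57, and *Qrsl1*, -0.36) and 2 higher (*Iars2*, 0.93, with 11 and 35 counts, and *Vars2*, 0.30, with 26 and 8). Lower and higher genes were 11.8% each of those measured, against 11.8% and 12.6% of all genes. For both lower genes the interval of the summed ratio spanned equal shares. It was 1.05 (0.775 to 1.39) for *Qrsl1*, with 296 and 58 counts, and 0.638 (0.308 to 1.20) for *Aars2*, with 92 and 11. The interval of the higher gene *Vars2* spanned them too, at 1.64 (0.643 to 3.74), whereas that of *Iars2* lay above them. *Lars2*, for leucine, had 315 and 58 (-0.18). All 13 protein genes of mitochondrial DNA were lower, with 12205 and 533 counts and a median of -1.39, and neither mitochondrial ribosomal RNA had a row in the table. Cytosolic ribosomal protein genes, measured in the same way, had 76 of 83 lower, none higher and a median of -1.34, with 3.66% and 0.236% of the counts. Their share was 15.5-fold lower (14.2 to 17), beside 2.83-fold for the 77 mitoribosomal genes and 5.86-fold for these without *Mrpl12*, *Mrps11* and *Mrpl19*.

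The cones of the uninjected plate were then compared by side, columns 1 to 6 with 39 cells and 546722 counts against columns 7 to 12 with 43 cells and 566702 counts. All were from the same condition, and what else differed between the sides is not stated in the sources used here. The summed share was 1.03% (5647 counts) and 0.936% (5307 counts), a ratio of 0.907 (0.873 to 0.941), yet single genes differed widely. With the log-fold taken as columns 7 to 12 minus columns 1 to 6, 15 genes were below -0.3 and 20 above 0.3, or 45.5% of the 77, where 17.4% of all 15947 genes lay beyond the limit, 9% below and 8.42% above it. Among the 71 mitoribosomal genes with a count in 10% or more of the cells of a side, the same 15 and 20 were beyond, against 30.5% of 8823 genes. The median was 0.10.

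*Mrpl12* was the most one-sided, with 0 and 382 counts and a log-fold of 2.28. The next were *Mrps25* with 3 and 107 (1.61), *Mrps27*, a pentatricopeptide repeat protein of the small subunit, with 33 and 105 (1.17), *Mrpl9* with 9 and 75 (0.89) and *Mrpl51* with 54 and 159 (0.83). In the other direction were *Mrpl16*, near the peptidyl transferase centre, with 67 and 6 (-1.28), *Mrps23* with 204 and 7 (-1.14), *Mrpl54* with 198 and 21 (-1.06), *Mrpl58* with 271 and 26 (-1.01) and *Mrpl49* with 117 and 0 (-0.96). One cell held 145 of the 211 *Mrps23* counts. Of the 48 genes with at least 50 uninjected counts, 3 had none on 1 side (*Mrpl12*, *Mrpl37* and *Mrpl49*), where 2.87% of 3306 such genes had none.

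**Figure D4:**
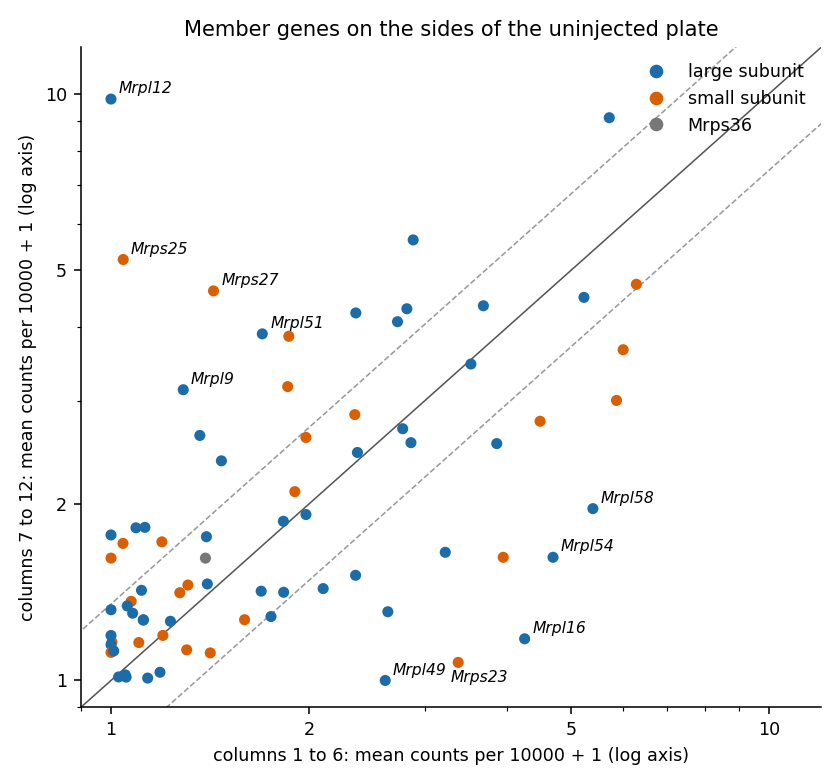
Mean counts per 10000 plus 1 of each gene on the sides of the uninjected plate, on log axes, with the solid line at equal values, dashed lines 0.3 log-fold away and the 5 highest and 5 lowest genes named. *Mrpl12* lies at the left edge with no count on columns 1 to 6, and *Mrpl49* on the lower edge with none on columns 7 to 12.

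The small subunit genes took 0.426% and 0.277% of the counts on columns 1 to 6 and 7 to 12, a ratio of 0.651 (0.610 to 0.694), and the large subunit genes 0.603% and 0.657%, a ratio of 1.09 (1.04 to 1.14). Without *Mrpl12* the large subunit took 0.603% and 0.590%, a ratio of 0.978 (0.931 to 1.03). *Mrps33* and *Mrps23* of the small subunit had most of their counts on columns 1 to 6, as given above. The ratio of the small subunit without them was not computed. The median log-folds between the sides were 0.04 for the large and 0.10 for the small subunit. Without *Mrpl12*, *Mrps11* and *Mrpl19* the 74 remaining genes took 0.942% and 0.792%. Among genes beyond the limit between the libraries, *Mrpl9*, *Mrps11*, *Mrpl12*, *Mrpl16*, *Mrpl23* and *Mrps23* had another sign of that log-fold on 1 side of the plates than over all cells. For *Mrpl34*, *Mrps18c* and *Mrps33* the log-folds were -1.74, -1.84 and -1.79 within columns 1 to 6 and -2.21, -1.55 and -1.30 within columns 7 to 12.

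**Figure D5:**
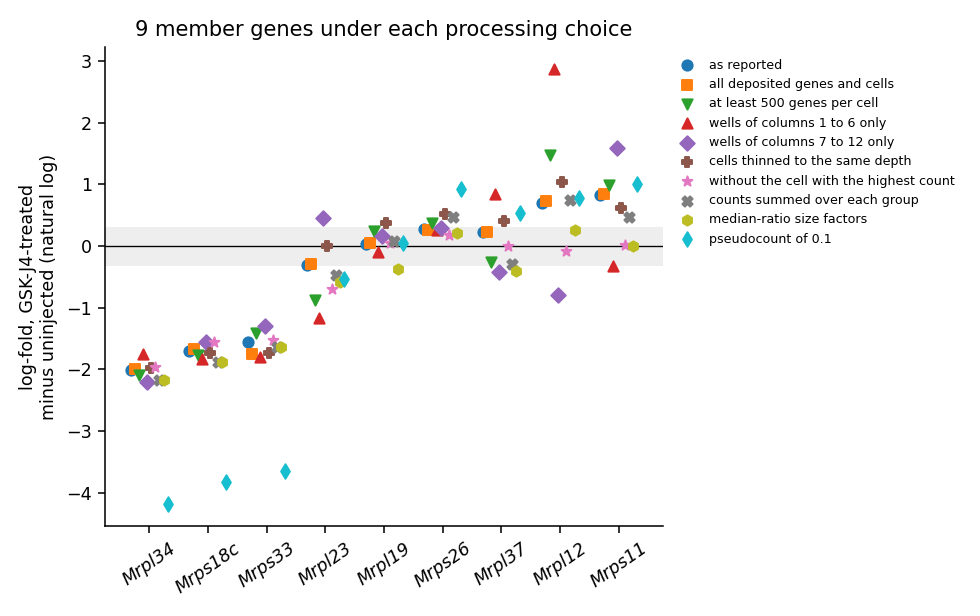
Log-fold between the libraries (treated minus uninjected, natural log) of 9 genes under each of the 10 ways of processing, with the grey band from -0.3 to 0.3. *Mrpl34*, *Mrps18c* and *Mrps33* lie below the band under every one, while *Mrpl12* and *Mrps11* range from below to above it.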

How the data were processed

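Single GFP-positive cells were sorted into plates and sequenced, with 1 library per condition. The authors deposited whole-number counts per gene and cell, without normalization, for 17774 genes and 151 cells. To make these counts, the authors split reads by plate, barcode and primer, used the CLC Genomics Workbench v.20 with a genome named GRCh38 (a human build number), collapsed duplicates by an 8-nt UMI and position, and added up the 3' and 5' reads that featureCounts assigned to Gencode M17 genes. The names of GSK-J4-treated cells hold the word adult, while the labels give PN24 for both libraries. Genes found in under 3 cells, cells with under 200 genes and cells above 5% mitochondrial counts were removed, which left 15947 genes and 146 cells. The batch correction of the study and a doublet caller were not run. In all, 54 well positions were filled on both plates. Log-folds (pseudocount 1, scale 10000) were computed in Python 3.11.15 with pandas 2.3.3, numpy 2.4.6 and scipy 1.17.1, and checked on simulated counts. Intervals are at 95% and cover counting error only. For equal depth, 867 counts (the 10th percentile) were drawn from each cell. Coordinates are from GENCODE vM21 on GRCm38 (all 77 symbols matched) and promoters from RefSeq.

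Genes named were those with a log-fold above 0, the 10 lowest, the 5 with most uninjected counts among those without a GSK-J4 count, those with at least 10 GSK-J4 counts, the 5 highest and lowest between sides and the S18 family, and of other lists the 2 with most uninjected counts and any above 0.3. The next 9 genes after the lowest and *Mrpl23*, *Mrps28*, *Mrpl46*, *Mrps36*, *Aars2*, *Gadd45gip1* and *Tufm* were named after their values were seen. The members, lists and rule were chosen with earlier results of these data known. Alternatives were all deposited genes and cells, at least 500 genes per cell, each plate side alone, thinning, leaving out the highest cell of each gene, summed libraries, median-ratio size factors and a pseudocount of 0.1.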

Additional observations from a re-analysis of the deposited data

How the results depend on the processing

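The count of 42 lower genes stayed between 37 and 55 under every alternative, and the median log-fold between -0.27 and -0.37, apart from -1.39 with a pseudocount of 0.1. The median of all genes lay between -0.016 and 0.038, apart from 0.18 with that pseudocount. The shares of all genes past the limit were not computed under the alternatives. The count of 2 higher genes depended most on the processing. It was 6 on columns 1 to 6 alone, 8 after thinning, 4 with summed libraries, 9 with a pseudocount of 0.1, and 0 both without the highest cell and with median-ratio size factors, which put the median of all genes at -0.02. The percent of uninjected counts was 1.03% and 0.936% on columns 1 to 6 and 7 to 12, 1.03% after thinning and 0.713% without the highest cells, and that of GSK-J4-treated counts was 0.438% after thinning and 0.168% without the highest cells. After thinning, 100% of uninjected cells had a count of a member. Between plate sides, a pseudocount of 0.1 gave 24 lower and 37 higher genes.

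Single genes beyond the limit changed sign as follows. Between the libraries, *Mrpl9* was at 0.093 and *Mrps11* at -0.33 on columns 1 to 6 alone. On columns 7 to 12 alone, *Mrpl23* was at 0.45, *Mrps23* at 0.014, *Mrpl12* at -0.79 and *Mrpl16* at 0.00062. *Mrpl23* was at 0.0066 after thinning, *Mrps11* at -0.0060 with median-ratio size factors and *Mrpl12* at -0.077 without the highest cell. Between plate sides, *Mrpl41* was at -0.14 and *Mrpl13* at 0.25 after thinning, and *Mrpl39* at 0.12 and *Mrps18a* at -0.069 without the highest cell. The cause of these changes was not tested. The shares of the large subunit without *Mrpl12*, and without it and *Mrpl19*, were added after seeing the data. The limit on expressed genes, in at least 10% of cells, was chosen after seeing the data and left all counts of members as they were. A gene could pass it through 1 library or 1 side alone. No paired analysis was possible because each condition had 1 library.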
